A study of Mus musculus with 10 samples.

Results

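The PEA3 group of ETS transcription factors consists of Etv1, Etv4 and Etv5, and all 3 genes were measured among the 56750 features of a gene count table from mouse sarcomas. They were taken from the table by gene symbol, and all 3 were among the 24743 genes with enough reads to be tested. RNA-seq libraries came from 3 dFLEx tumors (170019, 170024 and 170025) and 2 KP tumors (3800 and 3802). The dFLEx tumors had the genotype dFLEx CDS +/-, in which an HA-tagged CIC::DUX4 fusion under the CAG promoter becomes active only after Cre and FLP recombination. They were induced by electroporation of Cre and FLPE plasmids into hind limb muscle. The KP tumors carried KRASloxP-STOP-loxP-G12D and p53fl/fl, and how they were induced is not given in the sources used here. The models differ both in oncogene and in the p53 alleles, which cannot be told apart. Neither the age of the mice at collection nor a treatment is given in the labels, and each tumor is 1 mass of mixed cells. The RNA of each tumor was split into 2 duplicates before library preparation, and 6 dFLEx and 3 KP libraries were used. The second library of tumor 3802 was not analysed here. Because duplicates share 1 RNA, their counts were summed and the tumor was the unit of replication.

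ETS factors bind DNA through the ETS domain at sites built around a GGAA core. The 3 PEA3-group proteins are closely related activators that act at the end of receptor tyrosine kinase, RAS and ERK signalling, for example downstream of FGF receptors in developing organs. The repressor CIC binds octamers such as TGAATGAA and TGAATGGA near PEA3-group and other ERK-response genes and holds their transcription down until ERK signalling relieves it. The CIC::DUX4 fusion keeps the DNA-binding part of CIC and activates those genes instead, and the study itself uses Etv1, Etv4 and Etv5 as markers of the fusion's activity. Their direction in dFLEx tumors is therefore not independent of how they were chosen.

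The CIC octamers were looked for in the promoters of the members, because these are the letters through which the fusion reaches its targets. RefSeq promoter sequences (assembly GRCm38.p6, 250 bases before to 50 bases after an annotated start) were matched by symbol for 2 of the 3 genes, Etv1 and Etv5, with 2 starts each. Each sequence matched GRCm39 at 1 place, and all coordinates here are GRCm39. None of the 4 octamers TGAATGAA, TGAATGGA, TCAATGAA and TCAATGGA occurred on either strand in any of the 4 windows, while 3.835% of all 32851 promoters held at least 1 of them. The downstream of the 2 Etv5 starts (chr16:22257069-22257368, minus strand) held the 6-letter core TGAATG 3 times, each time as TGAATGGG. The core and this longer form were chosen for the count after the sequence was seen. Of all promoters, 12.73% held TGAATG at least 1 time and 0.1705% at least 3 times, and 1.084% held TGAATGGG at least 1 time. The Etv5 window was the 1 promoter of 32851 with 3 copies of TGAATGGG. The 3 stretches are shown because they hold the core TGAATG at a member, and other variants of the octamers were not searched. They run 5′ to 3′ on the strand of the gene, with the TGAATGGG letters or their reverse complement in capitals.
Etv5, chr16:22257343-22257368: agttttcaTGAATGGGaaggctggga
Etv5, chr16:22257299-22257326: tcttgttttgTGAATGGGgccgggcgcg
Etv5, chr16:22257232-22257259: ggctccatctCCCATTCAtaaaaccagg

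These 3 stretches begin their capitals 242, 198 and 131 bases before that start. Of the 22 Etv5 transcripts annotated in GENCODE M39, 19 span these positions, 1 of them with a noncoding exon and the others with an intron. For comparison, 2 of the 6 named CIC and ERK output genes described below, Shc4 and Spred3, had a promoter entry, and both held an octamer. The Shc4 window also held TGAATGGG 1 time. The stretches below hold the octamers in capitals, all outside coding sequence and within an exon of 4 and 5 of the 8 Shc4 transcripts and of 1 of the 5 Spred3 transcripts.
Shc4, chr2:125566076-125566103: tattctcggcTCCATTCAcagatttatt
Shc4, chr2:125566022-125566049: ttcggcaaagTTCATTCAtaaaaatttc
Spred3, chr7:28868065-28868092: ttgatttttgTGAATGAAatgctccttg

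A match is a run of letters and not a measured binding site, and the tumors' occupancy by the fusion was not part of these data.

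The fusion itself was read first, since it sets the 2 models apart. The CIC_DUX4 feature had 4238, 11623 and 33600 counts in dFLEx tumors 170019, 170024 and 170025, and 0 and 6 counts in KP tumors 3800 and 3802. The HA-tag feature had 128, 325 and 1388 counts in the dFLEx tumors and 0 in both KP tumors, so the libraries matched their labels. As a rate of the library total (CPM, with totals scaled by TMM in edgeR), the fusion stood at 105, 202 and 423 CPM in the 3 dFLEx tumors. Library totals ran from 20503474 to 46302223 counts.

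Etv4 had the highest level of the 3 genes. It also had the largest log2 fold change of the 3, with 2 exceptions. These were the fit without KP tumor 3800 (4.46, against 4.71 for Etv5) and the removal of a trend with GC content and length, described further on (3.81, against 4.06 for Etv1). Its gene (ENSMUSG00000017724) lies at chr11:101660568-101676197 on the minus strand. It stood at 4211 CPM in dFLEx tumor 170019, at 3732 CPM in 170024 and at 2724 CPM in 170025, against 117 CPM in KP tumor 3800 and 180 CPM in 3802. The lowest dFLEx tumor was 15.1 times the highest KP tumor, and the groups did not overlap. The fitted log2 fold change, dFLEx against KP, was 4.58 (SE 0.64), or 23.9-fold, with an adjusted p of 0.0517 in edgeR's quasi-likelihood test on tumor sums, just above the threshold of 0.05.

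Etv1 (ENSMUSG00000004151, chr12:38829379-38920483, plus strand) stood at 452, 539 and 1099 CPM in dFLEx tumors 170019, 170024 and 170025. It stood at 54.1 and 36.1 CPM in KP tumors 3800 and 3802. The lowest dFLEx tumor was 8.36 times the highest KP tumor. The log2 fold change was 3.95 (SE 0.72), or 15.4-fold, and the adjusted p of 0.0936 in edgeR did not pass.

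Etv5 (ENSMUSG00000013089, chr16:22200059-22258469, minus strand) stood at 757, 954 and 1869 CPM in dFLEx tumors 170019, 170024 and 170025. It stood at 111 and 51.3 CPM in KP tumors 3800 and 3802. The lowest dFLEx tumor was 6.80 times the highest KP tumor. The log2 fold change was 3.88 (SE 0.76), or 14.7-fold, with an adjusted p of 0.109 in edgeR. Tumor 170025 was the highest dFLEx tumor for both Etv1 and Etv5 and the lowest for Etv4.

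All dFLEx tumors thus stood above both KP tumors for each of the 3 genes, which held for 13.7% of the tested genes, and 0 of the 3 passed the threshold in edgeR on tumor sums, where 0.101% of the tested genes passed as higher in dFLEx. That fit called 45 genes in all, while 2617 genes had an unadjusted p under 0.05, and its median log2 fold change over all tested genes was -0.18. Etv4, Etv1 and Etv5 held ranks 321, 445 and 462 by log2 fold change. Among the 2014 genes with a dFLEx mean of at least 100 CPM they held ranks 48, 59 and 60. Duplicates of a tumor differed little: over the 4 tumors with both duplicates, the higher of the pair was between 1.00 and 1.15 times the lower for every member. No other gene of the table overlapped the span of any of the 3 genes, so reads of a neighbour or an antisense gene of the table could not be mixed with theirs.

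**Figure D1:**
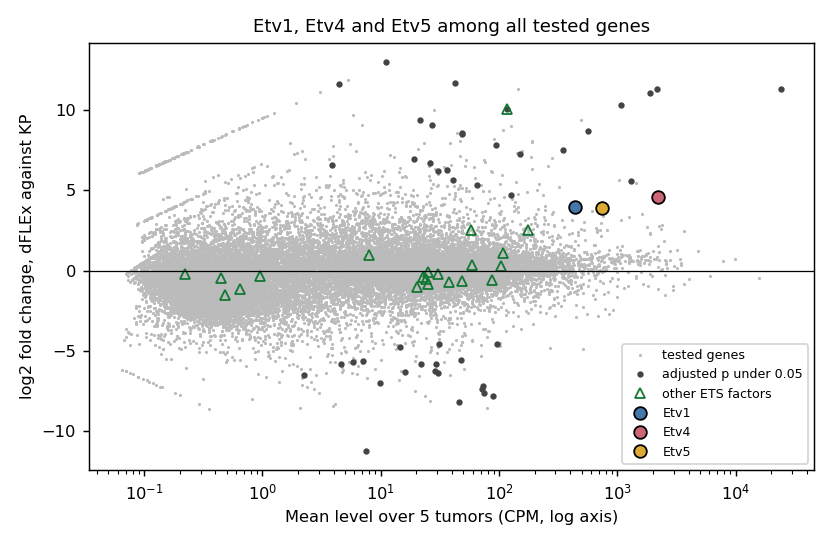
Each point is 1 of the 24743 tested genes, with its mean level over the 5 tumors (CPM, log axis) on the horizontal axis and its log2 fold change, dFLEx against KP, on the vertical axis. Dark points had an adjusted p under 0.05, and Etv4, Etv1 and Etv5 lie at 4.58, 3.95 and 3.88. Their mean CPM, not divided by gene length, were higher than those of the 21 other tested ETS factors (triangles). Per kilobase, Elf3 averaged 88.1 CPM in dFLEx tumors, above Etv1 at 52.4.

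Etv1 and Etv5 ordered the dFLEx tumors one way and Etv4 the other way, and the 3 genes differ in base composition. The GC content of the longest annotated transcript was 40.0% for Etv1, 48.4% for Etv5 and 59.0% for Etv4, at the 8.15, 48.8 and 95.5 percentiles of the tested genes. Each tumor's trend of level with GC content and transcript length was fitted over 15218 genes and removed, a setting added after the data were seen. Such a removal also takes out any true difference between tumors that follows GC content or length. Why the genes ordered the tumors differently was not tested. With the trend removed, Etv1 stood at 697, 649 and 719 CPM in dFLEx tumors 170019, 170024 and 170025 and at 31.8 and 50.6 CPM in KP tumors 3800 and 3802. Etv4 stood at 3103, 2702 and 2686 CPM in the same dFLEx tumors and at 183 and 219 CPM in the KP tumors. Etv5 stood at 988, 956 and 1274 CPM in the dFLEx tumors and at 85.7 and 74.6 CPM in the KP tumors.

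The coefficient of variation over the 3 dFLEx tumors was 5.19% for Etv1 with the trend removed, against 50.3% before. It was 8.34% against 21.4% for Etv4 and 16.3% against 49.8% for Etv5. Across the 10023 genes averaging 10 CPM or more, its median was 31.6% with the trend removed, against 42.4% before. On this scale all 3 genes rose, with 3 of 3 under the threshold where 0.302% of genes passed as higher in dFLEx. The log2 fold changes were 4.06 (SE 0.54, adjusted p 0.0381) for Etv1, 3.81 (SE 0.52, adjusted p 0.0407) for Etv4 and 3.74 (SE 0.52, adjusted p 0.0407) for Etv5, in edgeR with the trend as an offset. The lowest dFLEx tumor was 12.8, 12.3 and 11.2 times the highest KP tumor for Etv1, Etv4 and Etv5.

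**Figure D2:**
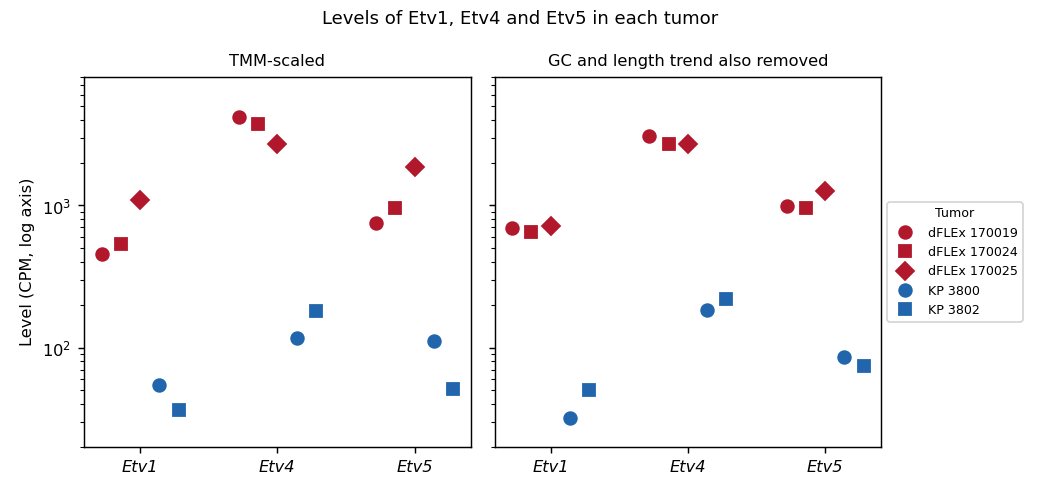
Each marker is 1 tumor (red, dFLEx; blue, KP), with its level in CPM on a log axis, for TMM-scaled counts on the left and with the trend with GC content and transcript length also removed on the right. On the right, the dFLEx tumors of Etv1 lie between 649 and 719 CPM, while on the left they lie between 452 and 1099 CPM.

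The members fell on either side of the threshold depending on the fit. edgeR on tumor sums also called all 3 with no filter on low counts, with log2 fold changes of 4.06 for Etv1, 4.74 for Etv4 and 3.96 for Etv5, where 1.19% of genes passed as higher. DESeq2, the tool the study used, called all 3 on the same tumor sums, where 4.29% of the genes it gave an adjusted p passed as higher in dFLEx, with log2 fold changes of 3.87 for Etv1, 4.48 for Etv4 and 3.81 for Etv5. limma-voom, run on the single libraries with tumor as a random effect, also called all 3, where 1.61% of genes passed as higher, with adjusted p-values of 0.000599 for Etv1, 7.12e-05 for Etv4 and 0.000692 for Etv5. When each tumor was left out in turn, fold changes on the log2 scale stayed between 3.45 and 4.44 for Etv1, between 4.38 and 4.94 for Etv4 and between 3.39 and 4.71 for Etv5 in edgeR. Etv4 alone passed in 1 of these 5 fits, the fit without KP tumor 3802 (adjusted p 0.0340). With 1 KP tumor left in, that tumor is assumed to vary like the dFLEx tumors.

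**Figure D3:**
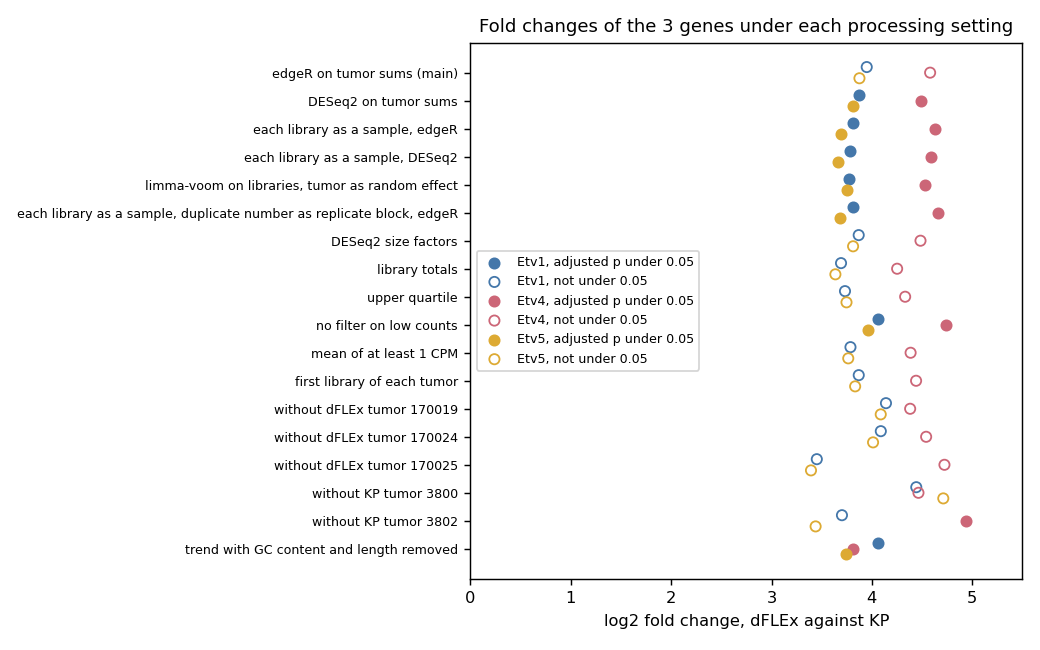
Each row is 1 processing setting and each circle a log2 fold change, dFLEx against KP, of Etv1, Etv4 or Etv5. Circles are filled where the adjusted p was under 0.05, and every circle lies between 3.39 and 4.94, above 0.

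Levels of different genes can be compared only per length of transcript, so CPM were divided by the exonic length of the table, 13296 bases for Etv1, 3104 for Etv4 and 4103 for Etv5. The order was Etv4, then Etv5, then Etv1 in 5 of 5 tumors, and also with the length of the longest annotated transcript or with plain counts. Etv4 averaged 1145 ± 245 CPM per kilobase in dFLEx tumors (SD, n = 3) and 47.9 ± 14.2 in KP tumors (SD, n = 2). It ranked 57, 42 and 23 by CPM per kilobase among all tested genes in dFLEx tumors 170019, 170024 and 170025, and 1340 and 868 in KP tumors 3800 and 3802. Etv5 averaged 291 ± 145 CPM per kilobase in dFLEx and 19.8 ± 10.3 in KP tumors. Etv1 averaged 52.4 ± 26.4 CPM per kilobase in dFLEx and 3.39 ± 0.96 in KP tumors. Neighbours in the order did not overlap within either group, and the closest neighbours were Etv4 and Etv5 in KP tumor 3800, at 37.8 and 27.1 CPM per kilobase. The Etv1 level rests on the longest of the 3 lengths, since its table length joins 115 exon parts of many isoforms while its longest annotated transcript has 6772 bases.

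Etv4 made up most of the PEA3-group level in every tumor. Its share of the summed counts per kilobase was 86.1%, 81.5% and 62.0% in dFLEx tumors 170019, 170024 and 170025, and 54.8% and 79.2% in KP tumors 3800 and 3802. Etv5 held 11.7%, 15.8% and 32.2% in the dFLEx tumors and 39.3% and 17.1% in the KP tumors. Etv1 held between 2.16% and 5.84% in dFLEx and 5.90% and 3.71% in KP tumors. The shares overlapped between the models, and the differences of 9.53 percentage points for Etv4, -8.30 for Etv5 and -1.22 for Etv1 were within the spread between tumors (exact two-sided permutation test over tumors, p = 0.4 for each, adjusted p = 0.4 over the 3). With 10 ways to split 3 and 2 tumors, the smallest p this test can give is 0.2. Without KP tumor 3800 the Etv4 difference was -2.67 points and the Etv5 difference 2.80 points.

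With the trend with GC content and length removed, the Etv4 share lay between 70.4% and 77.3% in dFLEx tumors and at 71.7% and 76.3% in KP tumors. The Etv5 share lay between 18.6% and 25.3% in dFLEx and at 25.4% and 19.6% in KP tumors. The mean Etv4 share was then 74.4 ± 3.62% in dFLEx and 74.0 ± 3.23% in KP tumors, a difference of 0.431 points (exact permutation p = 1.0).

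**Figure D4:**
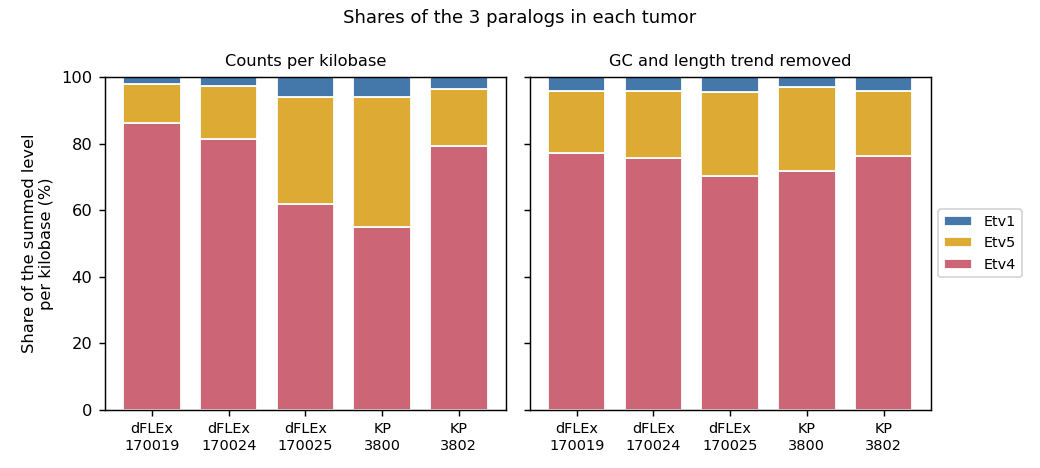
Each bar is 1 tumor, divided by the share (%) of Etv4, Etv5 and Etv1 in their summed level per kilobase, from scaled counts on the left and with the trend with GC content and length removed on the right. The Etv4 share runs from 54.8% to 86.1% on the left and from 70.4% to 77.3% on the right.

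Ratios between paralogs, in which library scaling cancels, asked whether the models differ by unequal factors. The log2 ratio of Etv4 to Etv1 per kilobase was 4.54 ± 1.00 in dFLEx (SD, n = 3) and 3.82 ± 0.85 in KP tumors (SD, n = 2). The log2 ratio of Etv4 to Etv5 was 2.07 ± 1.00 in dFLEx and 1.35 ± 1.23 in KP tumors. Neither difference, 0.72 on the log2 scale for both, exceeded the spread between tumors (exact permutation p = 0.4, adjusted p = 0.6 over 3 ratios). The log2 ratio of Etv5 to Etv1 was 2.44, 2.52 and 2.46 in dFLEx tumors 170019, 170024 and 170025, and 2.73 and 2.20 in KP tumors 3800 and 3802. Over the dFLEx tumors its SD was 0.04, and 0.17 with the trend removed, when that of Etv4 to Etv1 was 0.13. With the trend removed the difference between the models in the ratio of Etv4 to Etv1 was -0.28, that of Etv5 to Etv1 was -0.36 and that of Etv4 to Etv5 was 0.08.

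In TMM-scaled counts, Etv1 and Etv5 ranked the dFLEx tumors in the same order as the fusion transcript. The summed counts of these tumors rose in that order too, as did other genes read here, such as Ets1 and Fgfr1. Fli1 did not follow it, and the share of all tested genes with that order was not counted. From tumor 170019 to 170025 the fusion was 4.01 times higher in CPM, Etv1 2.43 times, Etv5 2.47 times and Etv4 0.647 times. The fusion has no GC content in the annotation, so its CPM were left as they were. With the trend removed, the same ratio of tumor 170025 to 170019 was 1.03 for Etv1, 1.29 for Etv5 and 0.866 for Etv4. The 2 genes then no longer had the order of the unadjusted fusion CPM, as tumor 170024 was the lowest dFLEx tumor for Etv1 (649 CPM) and Etv5 (956 CPM). The 2 sides are on unlike scales there. Per fusion CPM, Etv4 stood at 39.9, 18.5 and 6.44 CPM in tumors 170019, 170024 and 170025. A correlation was not computed over 3 tumors, and a transgene level in bulk RNA also moves with the share of tumor cells: fewer cells of a type and less RNA per cell cannot be told apart in these samples.

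Among ETS factors, the PEA3 group took most of the measured transcript pool in dFLEx tumors. Its share of the summed counts per kilobase of 27 ETS factors was 87.2%, 85.4% and 80.5% in dFLEx tumors 170019, 170024 and 170025 and 29.7% and 37.3% in KP tumors 3800 and 3802. The means were 84.4 ± 3.46% (SD, n = 3) and 33.5 ± 5.35% (SD, n = 2), a difference of 50.9 percentage points with no overlap (exact two-sided permutation p = 0.2, the smallest possible). The difference was 48.4 points with the trend with GC content and length removed, and between 47.1 and 54.7 points with a tumor left out.

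Of the 24 other ETS factors, 21 were tested and 1 rose in edgeR on tumor sums, where 0.101% of all tested genes did. This was Elf3, an epithelial ETS factor, at 218, 207 and 161 CPM in dFLEx tumors 170019, 170024 and 170025 and at 0.215 and 0.122 CPM in KP tumors 3800 and 3802. Its log2 fold change was 10.10 (SE 0.87, adjusted p 0.0245), and it did not pass without dFLEx tumor 170019 (adjusted p 0.113) or 170024 (adjusted p 0.118). The median log2 fold change of the 21 was -0.35, against -0.18 over all tested genes, and 7 had a value above 0. Without KP tumor 3800 this median was 0.86, against -0.07 over all tested genes, and without 3802 it was 0.21, against 0.34. Ets1 and Fli1, which are expressed in endothelium among other tissues, were higher in every dFLEx tumor. Their log2 fold changes were 2.52 (adjusted p 0.381) and 2.54 (adjusted p 0.226) in edgeR. Erg, which the study lists among endothelial genes, had overlapping groups (log2 fold change 0.96, adjusted p 0.839 in edgeR). Erf was also higher in every dFLEx tumor, as 13.7% of all tested genes were (log2 fold change 1.10, adjusted p 0.648 in edgeR). DESeq2 on tumor sums and limma-voom each called Elf3, Ets1 and Fli1 higher, 3 of the 21, where 4.29% and 1.61% of all genes were. Ets1, Fli1, Erg and Erf were named after their values were seen.

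**Figure D5:**
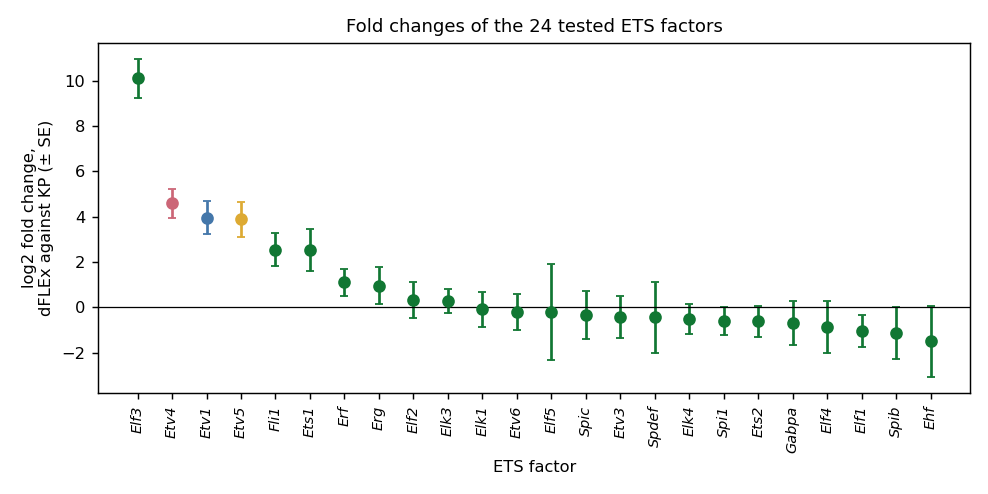
Each point is the log2 fold change, dFLEx against KP, of 1 of the 24 tested ETS factors, with its SE as the error bar. Elf3 lies at 10.10, Etv4, Etv1 and Etv5 follow at 4.58, 3.95 and 3.88, and the next factor, Fli1, lies at 2.54.

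Upstream of the PEA3 group, 12 genes of the FGF, RET and KIT pathways were listed and tested, and 0 passed (edgeR on tumor sums). Their median log2 fold change was -0.56, with 5 above 0. Ret, a receptor tyrosine kinase whose signalling maintains Etv4 and Etv5 in the developing kidney, stood at 45.0, 95.7 and 262 CPM in dFLEx tumors 170019, 170024 and 170025 and at 7.72 and 0.650 CPM in KP tumors 3800 and 3802 (log2 fold change 4.99, adjusted p 0.206). Its ligand Gdnf was at most 0.995 CPM in dFLEx and stood at 12.99 and 1.75 CPM in KP tumors 3800 and 3802 (log2 fold change -3.78, adjusted p 0.222). The co-receptor Gfra1 had a log2 fold change of -2.26, which was 1.15 without KP tumor 3800. Of the FGF receptors, Fgfr3 had a log2 fold change of 3.51 (adjusted p 0.139) and Fgfr4 one of -2.68 (adjusted p 0.215). Kit, the receptor tyrosine kinase whose signalling stabilizes ETV1 protein in gastrointestinal stromal tumors, had a log2 fold change of 2.07 (adjusted p 0.377). The list's median was 0.57 without KP tumor 3800 and 0.60 without 3802, against -0.07 and 0.34 over all tested genes. DESeq2 on tumor sums called Fgfr3 and Ret higher and Fgfr4 and Gdnf lower, where 4.29% and 3.31% of all genes with an adjusted p were called higher and lower.

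Genes that share CIC or ERK control with the PEA3 group had a median log2 fold change of 1.45 over 20 tested genes. Of these, 15 were above 0 and 8 were higher in every dFLEx tumor (13.7% of all tested genes were). In edgeR on tumor sums, 0 passed the threshold. The list includes Dusp6, Shc3, Shc4 and Spred3, which the study reports as fusion targets from its own comparison of dFLEx with KP tumors. The direction of the list is therefore not independent of how it was chosen. Shc4, an adaptor protein, stood at 127, 236 and 578 CPM in dFLEx tumors 170019, 170024 and 170025 and at 5.52 and 2.32 CPM in KP tumors 3800 and 3802 (log2 fold change 6.32, adjusted p 0.0784). Its paralog Shc3 stood at 30.1, 62.7 and 333 CPM in the dFLEx tumors and at 1.05 and 2.80 CPM in the KP tumors (log2 fold change 6.21, adjusted p 0.133). Spred3, of the Sprouty-related inhibitors of RAS signalling, had a log2 fold change of 4.02 (adjusted p 0.122), and the cyclin gene Ccnd2 one of 3.53 (adjusted p 0.0784). The ERK phosphatase gene Dusp4 had a log2 fold change of 2.93 with overlapping groups, and the AP-1 gene Fosl1 one of -2.54, which was 3.14 without KP tumor 3800. With the trend with GC content and length removed Shc4 passed (adjusted p 0.0323), and DESeq2 on tumor sums, with the same shares of all genes, called Spred3, Shc3, Shc4 and Ccnd2 higher and Dusp5 lower. The list's median was 0.52 without dFLEx tumor 170025, 0.93 without KP tumor 3802 and 2.83 without KP tumor 3800. Over all tested genes the median was -0.26, 0.34 and -0.07 in these fits.

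PEA3-group proteins are marked for destruction by the COP1 ubiquitin ligase with DET1, and the 11 tested genes of turnover and cofactors included 0 that passed in edgeR on tumor sums. Their median log2 fold change was 0.31, and the 6 of largest size were Trib2 (2.20), Trib1 (1.01), Med25 (0.69), Ep300 (-0.61), Rbx1 (0.52) and Dda1 (0.50). Trib2, a pseudokinase that works with COP1, stood at 57.8, 103 and 195 CPM in dFLEx tumors 170019, 170024 and 170025 and at 34.5 and 17.4 CPM in KP tumors 3800 and 3802, with an adjusted p of 0.326 in edgeR. Trib2 was called higher by DESeq2 on tumor sums (adjusted p 0.0362) and by limma-voom (adjusted p 0.0451), the 1 gene of the list that was. Of all genes, 4.29% were called higher by DESeq2 and 1.61% by limma-voom. The sign of Ep300 turned without KP tumor 3800 (1.02), that of Rbx1 without dFLEx tumor 170019 (-0.18) and that of Dda1 with the trend with GC content and length removed (-0.31). These are transcript levels, and the count data hold no protein measurement. By immunohistochemistry, the study reports strong ETV4 staining in dFLEx tumors. The list's median was 1.17 without KP tumor 3800, -0.05 without 3802 and 0.13 without dFLEx tumor 170025. Over all tested genes the median was -0.07, 0.34 and -0.26 in these fits.

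Genes described elsewhere as PEA3-group targets did not move one way. Of 12 listed, 11 were tested, 0 passed in edgeR on tumor sums, 5 had a log2 fold change above 0, and the median was -0.55. The collagenase gene Mmp13 stood at 460, 559 and 125 CPM in dFLEx tumors 170019, 170024 and 170025 and at 9.42 and 19.7 CPM in KP tumors 3800 and 3802 (log2 fold change 4.71, adjusted p 0.109). The gelatinase gene Mmp9 had a log2 fold change of 2.71 (adjusted p 0.317) and was higher in every dFLEx tumor. The hepatocyte growth factor receptor gene Met stood at 1.22, 4.25 and 5.62 CPM in the dFLEx tumors and at 126 and 16.7 CPM in KP tumors 3800 and 3802 (log2 fold change -4.27, adjusted p 0.159). Spp1, which encodes osteopontin, had a log2 fold change of -2.43 (adjusted p 0.229) and was lower in every dFLEx tumor. Mmp3 (-2.47) and Mmp2 (1.04) had overlapping groups, and their signs turned without KP tumor 3802 (1.04) and without dFLEx tumor 170025 (-0.32). DESeq2 on tumor sums and limma-voom each called Mmp9 and Mmp13 higher and Met and Spp1 lower. Of all genes, 4.29% (DESeq2) and 1.61% (limma-voom) were called higher, and 3.31% and 1.17% lower. The list's median was 0.58 without KP tumor 3802 and -0.15 without 3800, against 0.34 and -0.07 over all tested genes.

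The genes with tumor profiles most like those of the members were found by the root mean square (RMS) difference of log2 CPM, centred on each gene's mean over the 5 tumors, among the 10029 genes averaging 10 CPM or more. For Etv1 they were Emilin1 (RMS difference 0.125), Etv5 (0.170), Spred3 (0.20), Efs (0.216) and Ephb3 (0.223). For Etv5 they were Cbarp (0.164), Emilin1 (0.165), Etv1 (0.170), Ephb3 (0.196) and Rhobtb2 (0.205). For Etv4 they included Wdr86 (0.129), Cpxm2 (0.276), Clec11a (0.301) and Smoc1 (0.349). Etv1 and Etv5 were thus ranks 2 and 3 from each other, while Etv4 was rank 183 from Etv1 and rank 234 from Etv5. With the trend with GC content and length removed, Etv4 was rank 2 from Etv1 and rank 5 from Etv5, and Etv5 was rank 13 from Etv1. The 5 genes most like each member then shared 0 with the earlier 5 for Etv1 and 2 for Etv5. The likeness is a description over 5 tumors, in which all genes of a tumor share its libraries.

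Markers of other cell types were read beside the members, and 0 passed the threshold in edgeR on tumor sums. The summed level of 9 myocyte markers was 9690, 36094 and 9230 CPM in dFLEx tumors 170019, 170024 and 170025 and 1355 and 4786 CPM in KP tumors 3800 and 3802, with 5 of 9 higher in every dFLEx tumor, where 13.7% of all tested genes were. That of 8 macrophage markers was between 1152 and 1363 CPM in dFLEx and 2867 and 5720 CPM in KP tumors, with 6 of 8 lower in every dFLEx tumor, where 11.7% of all tested genes were. That of 8 endothelial markers was between 322 and 665 CPM in dFLEx and 182 and 150 CPM in KP tumors, with 5 of 8 higher in every dFLEx tumor. From single nuclei, the study reports a group of dFLEx tumor cells, in a minority of its tumors, enriched for endothelial genes such as Pecam1 and Cdh5. Whether endothelial marker reads came from such tumor cells was not tested. Fibroblast markers summed to between 4015 and 13057 CPM in dFLEx and to 4379 and 1920 CPM in KP tumors, and pericyte markers to between 588 and 1016 and to 353 and 86.9 CPM. The 6 T cell, 4 B cell and 4 Schwann cell markers each summed to at most 51.4 CPM in any tumor. The fibroblast sums overlapped between the models. No marker of these lists was at 0 in any tumor. The part of these cells in the levels of Etv1, Etv4 and Etv5 was not tested.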

How the data were processed

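Per the labels, RNA of flash-frozen tumors was depleted of ribosomal RNA and read as paired ends. The submitters' processing notes name Trimmomatic 0.39, STAR 2.7.10a, featureCounts of Subread 2.0.3, DESeq2 and the build mm39 (GRCm39). The authors deposited raw counts per gene, which are not normalized. Per the file headers, featureCounts ignored strand, left out chimeric pairs and counted each mate, so that totals overstate the number of fragments, and reads with several alignments were not counted. Symbols came from GENCODE M39 (56017 of 56750 features).

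Counts were summed per tumor, filtered with filterByExpr, scaled by TMM and tested with edgeR 4.0.16 (glmQLFit, glmQLFTest), with Benjamini-Hochberg adjusted p-values across the tested genes called under 0.05. SE was taken as the absolute log2 fold change over the root of the F statistic. The script was tested on simulated data. Alternatives used DESeq2 1.42.0, limma 3.58.1, other scalings and filters, single libraries, each tumor left out, and loess (span 0.3) removal of GC content and length trends (genes of at least 1 CPM). Exact tests used SciPy 1.17.1. P-values from tumor sums and from the exact tests set a difference against the spread between these tumors. Those from single libraries without a tumor effect also draw on the spread between duplicates of 1 RNA.

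The members and lists were chosen with earlier results of these data known. Named genes are list members that passed, or else up to 6 per list with the largest absolute log2 fold change at a mean of at least 1 CPM, and the 5 genes most like each member (mean of at least 10 CPM, 0.1 added before log2), of which 1 is not reported here.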

Additional observations from a re-analysis of the deposited data

How the results depend on the processing

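Every fit gave Etv1, Etv4 and Etv5 log2 fold changes above 0. Log2 fold changes of Etv1, Etv4 and Etv5, and the count of genes called, were 3.87, 4.48, 3.81 and 1516 with DESeq2 on tumor sums, 3.82, 4.63, 3.69 and 3344 with each library as a sample in edgeR, 3.78, 4.59, 3.67 and 5042 with each library in DESeq2, 3.77, 4.53, 3.75 and 543 with limma-voom and the tumor as a random effect, 4.06, 4.74, 3.96 and 880 with no filter on low counts, and 4.06, 3.81, 3.74 and 146 with the trend with GC content and length removed, a setting added after the data were seen. All 3 members passed the threshold in each of these fits. With each library as a sample, 1609 of 19538 tested genes passed as higher in edgeR and 2500 in DESeq2. The shares passing as higher were 4.29% with DESeq2 on tumor sums, 1.61% with limma-voom, 1.19% with no filter and 0.302% with the trend removed. Of the members, 0 passed in edgeR on tumor sums with DESeq2 size factors, library totals, upper quartile scaling, a mean of at least 1 CPM (80 genes called) or the first library of each tumor. With the duplicate number as a replicate block on single libraries the values were 3.81, 4.66, 3.68 and 2476, and the numbers name splits of each tumor's own RNA, so that they pair no tumors. Fits on single libraries treat duplicates of 1 RNA as separate samples. Why the fits differ was not tested. The median log2 fold change of all genes was -0.18, against -0.47 with library totals and -0.34 with upper quartile scaling.

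Leaving out each tumor in turn gave between 0 and 414 calls against 45, and log2 fold changes between 3.45 and 4.44 for Etv1, between 4.38 and 4.94 for Etv4 and between 3.39 and 4.71 for Etv5. The differences between the models in share ran from -2.67 to 21.7 percentage points for Etv4, from -19.4 to 2.80 for Etv5 and from -2.35 to -0.13 for Etv1. Those in log2 ratio ran from -0.15 to 1.58 for Etv4 to Etv5, from 0.12 to 1.32 for Etv4 to Etv1 and from -0.26 to 0.27 for Etv5 to Etv1. With the trend removed, the Etv1 share difference was 0.717 points, and the log2 ratio differences were -0.28 for Etv4 to Etv1 and -0.36 for Etv5 to Etv1. Other log2 fold changes that turned sign with a tumor left out ran from -0.18 (without 170019) to 0.90 for Rbx1, from -0.32 (without 170025) to 4.61 for Mmp2, from -1.60 to 1.02 for Ep300, from -3.99 to 3.14 for Fosl1 and from -3.17 to 1.15 for Gfra1 (the upper values without 3800), and from -3.24 to 1.04 (without 3802) for Mmp3. Dda1 was -0.31 with the trend removed. Every member had at least 888 counts in every tumor, so precision rests on the number of tumors rather than on depth.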
